A study of Mus musculus with 8 samples.

Results

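The mitochondrial genome of the mouse holds 37 genes in the deposited table of 54532 genes, and 8 of these are described here. They are the protein-coding genes mt-Co1, mt-Cytb, mt-Nd1, mt-Nd2, mt-Nd5 and mt-Nd6 and the ribosomal RNA genes mt-Rnr1 and mt-Rnr2. They were chosen by name as mitochondrially encoded genes with high FPKM (fragments counted on a gene, relative to its length and to the depth of the library) in every library and few reads that a nuclear copy could share. Their overall levels are therefore a description and were not tested. The genes were followed in 8 libraries of C57BL/6J mouse spermatocytes, which covered pachytene (P) and leptotene or zygotene (L/Z) cells of MFN2 WT and MFN2 cKO mice at postnatal day (PD) 24 and PD 52. By the labels both genotypes carried Mfn2 loxp/loxp, although the study's text also counts Mfn2 fl/+ mice among its MFN2 WT controls. MFN2 cKO mice carried Stra8-Cre in addition, a Cre driven by the Stra8 promoter in male germ cells that removes exon 6 of Mfn2. Cells were separated by sedimentation in a BSA gradient and judged by diameter and morphology, and somatic cells of the testis keep Mfn2. Each combination had a single library, so a cKO-to-WT change at a given stage and age has no replicate check.

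MFN2 is a protein of the outer mitochondrial membrane that joins mitochondria to each other. The mitochondrial genome is transcribed from both strands as long precursors that are cut, mostly at tRNAs, into the ribosomal RNAs, the tRNAs and the mRNAs. The mRNAs encode subunits of respiratory complexes I, III and IV and of ATP synthase, and the remaining subunits are made from nuclear genes. Most mitochondrial mRNAs have poly(A) tails, which in some of them complete the stop codon. During spermatogenesis mitochondria change in shape and number as germ cells pass from mitosis through meiosis to spermatids.

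On the mitochondrial chromosome (MT) of GRCm38 the members are exons without introns. In order of position they run from mt-Rnr1 (positions 70 to 1024) and mt-Rnr2 (1094 to 2675) to mt-Nd1 (2751 to 3707), mt-Nd2 (3914 to 4951) and mt-Co1 (5328 to 6872). After these come mt-Nd5 (11742 to 13565), mt-Nd6 (13552 to 14070) and mt-Cytb (14145 to 15288). Of the 8 members, mt-Nd6 alone is annotated on the opposite strand, and its RNA had 28.1% G and 5.97% C, while the other 5 mRNAs had between 8.0% and 16.1% G. The starts of the mRNAs are shown because these genes use several start codons, set here in capitals, in the sequences of GENCODE mouse release M21:
mt-Co1: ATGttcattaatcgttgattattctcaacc
mt-Cytb: ATGacaaacatacgaaaaacacacccatta
mt-Nd1: GTGttctttattaatatcctaacactcctc
mt-Nd2: ATAaatcctatcacccttgccatcatctac
mt-Nd5: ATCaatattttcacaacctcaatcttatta
mt-Nd6: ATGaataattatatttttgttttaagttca

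The mt-Cytb gene ends on a lone T after 381 codons, in capitals here, and its stop codon is one of those finished by the poly(A) tail.
mt-Cytb: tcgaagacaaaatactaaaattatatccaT

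The 3′ ends of mt-Nd5 and mt-Nd6 are shown because they are complementary over 14 bases, in capitals, at positions 13552 to 13565. The library kit is not stated to keep strand, so reads from this stretch, and RNA from either strand along both genes, could not be told apart.
mt-Nd5: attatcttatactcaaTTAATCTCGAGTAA
mt-Nd6: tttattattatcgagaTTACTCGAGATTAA

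Nuclear copies of mitochondrial DNA can take or lend reads, so each gene was cut into every window of 150 bases, the read length, and looked up in the nuclear transcripts of the same annotation. None of the windows of 7 members occurred there. In mt-Co1, which encodes the catalytic subunit of cytochrome c oxidase, 330 of 1396 windows (23.6%) did, all between base 1067 and its end at base 1545. They lie in the nuclear pseudogene Gm29216 (chromosome 1, 24615706 to 24616197), whose own FPKM was between 7.60 and 29.4 while mt-Co1 never fell below 1637. How reads matching both places were counted is not given in the sources used here. The level of mt-Co1 below may thus lack reads from this stretch, and by how much was not tested. Just outside the rule, mt-Nd4 shared 59.2% of its windows and had FPKM between 178 and 522. mt-Atp8 shared none but had FPKM of at most 1.05.

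Total reads on genes ranged from 14340665 to 20379950, and the 8 members took between 0.377% and 1.34% of them. They held 92.5% to 94.9% of all reads on mitochondrial genes. That share rests on how reads were counted, which the sources used here do not give for reads that also match a nuclear copy. Among the other genes, mt-Co2, mt-Atp6 and mt-Co3 shared 99.4%, 99.4% and 99.8% of their windows of 150 bases. Their FPKM was at most 51.3, 24.6 and 23.7. Mfn2 itself had FPKM between 62.2 and 97.5 in the MFN2 WT libraries and between 34.3 and 50.1 in the MFN2 cKO libraries, with no overlap. That value covers the whole gene, not the removed exon alone. Markers of cell types were summed in FPKM to check the labels. The 8 pachytene markers summed to between 2776 and 4589 in all libraries and were higher in P in 3 of 4 matched pairs. Ldhc alone gave between 1494 and 2910 of that sum. Among these markers Piwil1 had FPKM of at least 168 in the P libraries and at most 40.5 in the L/Z libraries. Hspa2 was also higher in P in every matched pair. Pgk2 and Ccna1 were lower in P in every pair, and the rest were mixed. The 8 leptotene and zygotene markers did not follow the L/Z label, since they summed to between 128 and 189 in the P libraries and between 57.4 and 166 in the L/Z libraries and were higher in P in 4 of 4 matched pairs. Within that list, 4 genes (Stra8, Dmc1, Prdm9 and Rad51ap2) were higher in L/Z than in P at PD 24 and the other 4 were lower. The 10 spermatid markers, which belong to cells after meiosis, were highest in the L/Z libraries at PD 52, with sums of 11326 and 20468 against 124 to 4979 in the other 6 libraries. The stage names below are thus those of the labels. In such bulk samples, fewer cells of a type and less RNA per cell cannot be told apart.

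The 6 mRNAs had higher FPKM, and thus more reads per length, than the 2 ribosomal RNAs in all libraries. How far the library preparation kept ribosomal RNA was not tested, so this order describes reads and not amounts in the cell. The neighbours by median, mt-Nd5 and mt-Rnr2, differed by only 1.67-fold in P cKO at PD 52. mt-Co1 ranked first in every library and gave 43.6% to 52.4% of the summed FPKM of the 8 members. Its FPKM at PD 24 was 4534 in P WT, 4374 in P cKO, 3114 in L/Z WT and 3397 in L/Z cKO, and at PD 52 it was 4081, 2987, 1753 and 1637 in the same order. The P libraries exceeded the L/Z libraries at each age, and the lowest values were those of L/Z at PD 52.

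mt-Cytb, the cytochrome b of complex III, was second by median. Its FPKM was 1739 in P WT, 1823 in P cKO, 1404 in L/Z WT and 1685 in L/Z cKO at PD 24, and 1100.0, 952, 741 and 589.7 at PD 52. All 4 libraries at PD 24 were above all 4 at PD 52.

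mt-Nd1, a membrane-arm subunit of complex I, had FPKM of 1061 in P WT, 1009 in P cKO, 891 in L/Z WT and 1074 in L/Z cKO at PD 24. At PD 52 they were 1116, 761, 503 and 432 in that order. The highest library of mt-Nd1 was P WT at PD 52, unlike any other mRNA here. mt-Cytb was above mt-Nd1 in 7 of 8 libraries by up to 1.81-fold, and in P WT at PD 52 the ratio was 0.985, so the order of these neighbours was not the same throughout.

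The other complex I subunits were lower. mt-Nd2 had FPKM of 755, 733, 558 and 613 at PD 24 and 506, 419, 285 and 217 at PD 52, in the order P WT, P cKO, L/Z WT and L/Z cKO. Its values at the younger age all exceeded those at the older age, as for mt-Cytb. mt-Nd6, in the same order, had FPKM of 572, 498, 497 and 531 at PD 24 and 354, 333, 180.1 and 149 at PD 52. mt-Nd5 had FPKM of 566, 505, 483 and 335 at PD 24 and 316, 329, 199 and 139 at PD 52. The 2 ages did not overlap for mt-Nd6 or mt-Nd5 either, though for mt-Nd5 the nearest values were 335 and 329. How many of all genes part the ages in this way was not counted. mt-Nd6 and mt-Nd5, whose genes overlap, were close to each other, with mt-Nd6 higher in 6 of 8 libraries. Their ratio was between 0.907 and 1.12 in 7 libraries and 1.59 in L/Z cKO at PD 24, the library in which mt-Nd5 was low for its age.

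The ribosomal RNAs form the small (mt-Rnr1) and large (mt-Rnr2) subunit of the mitochondrial ribosome. mt-Rnr1 had FPKM of 80.5 in P WT, 73.6 in P cKO, 75.3 in L/Z WT and 85.6 in L/Z cKO at PD 24, and 198, 176, 70.9 and 77.3 at PD 52. mt-Rnr2 had FPKM of 113, 111, 81.1 and 76.5 at PD 24 and 116, 198, 47.6 and 58.2 at PD 52. Both were highest in a P library at PD 52, where the mRNAs were below their PD 24 levels except mt-Nd1 in WT. mt-Rnr2 was above mt-Rnr1 in 4 of 8 libraries, so neither of them can be ranked over the other.

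**Figure D1:**
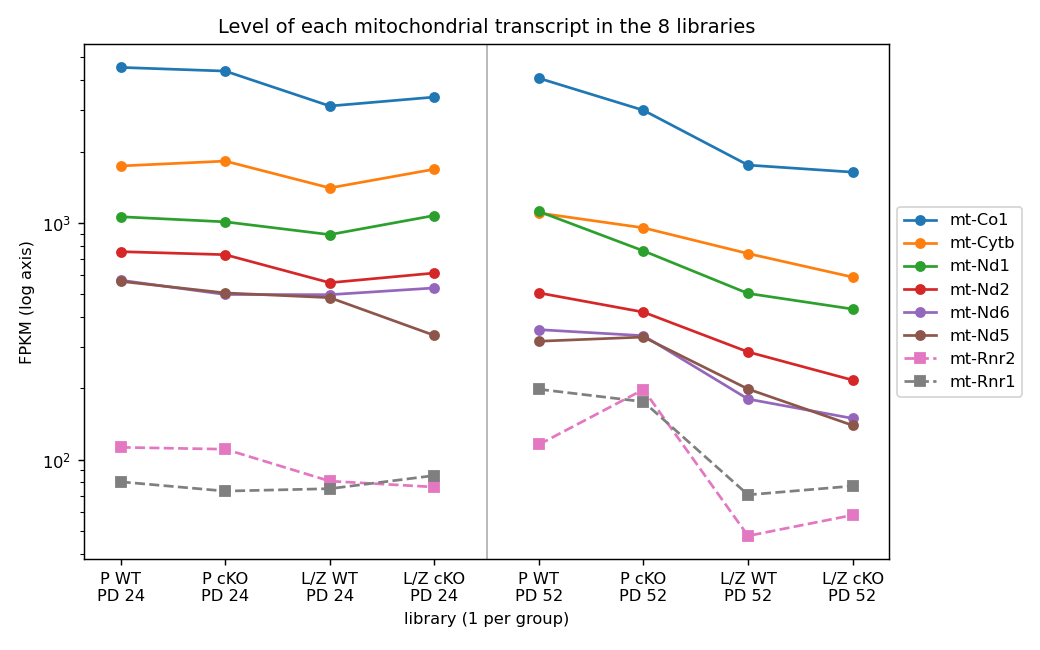
FPKM (log axis) of the 8 mitochondrial transcripts in the 8 libraries, with 1 point per library, circles for mRNAs and squares for ribosomal RNAs, and lines that only join the points of an age. mt-Co1 lies between 1637 and 4534 and on top in every library, the mRNAs fall toward the L/Z libraries at PD 52, and mt-Rnr1 and mt-Rnr2 peak at 198 in P libraries at PD 52.

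The first comparison asked whether the transcripts differed between MFN2 cKO and MFN2 WT. No member changed at least 2-fold in any of the 4 cKO-to-WT pairs, where 8.08% (P, PD 24), 10.5% (L/Z, PD 24), 11% (P, PD 52) and 7.95% (L/Z, PD 52) of all genes did. Changes are given as differences in log2(FPKM + 1) over the genes that passed 1 FPKM in either library of the pair. Intervals are 95% Clopper-Pearson intervals on the reads and cover counting error only.

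In P cells at PD 24 the changes ran from -0.20 for mt-Nd6 to 0.068 for mt-Cytb, and 1 of 8 was higher in MFN2 cKO, although 7 were higher after scaling to reads on nuclear protein-coding genes and 4 after median-of-ratios scaling over genes above 1 FPKM. The median over all genes in that pair was -0.095. No direction can therefore be given for the members in this pair.

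In L/Z cells at PD 24, 6 members were higher in MFN2 cKO, where the median over all genes was 0.077. With median-of-ratios scaling over genes above 1 FPKM 6 were still higher, though mt-Co1 moved from 0.13 to 0.067 and mt-Nd6 to 0.036. mt-Nd1 was higher by 0.27 (0.24 to 0.30) and mt-Cytb by 0.26 (0.24 to 0.29). mt-Nd5 differed from the other mRNAs, with 16642 reads in WT and 10823 in cKO and a change of -0.53 (-0.56 to -0.49). The neighbouring mt-Nd6, on the opposite strand, changed by 0.094 (0.037 to 0.15). The mt-Nd5 RNA thus lay at 69.3% of its WT level beside 5 mRNAs at 107% to 120%.

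At PD 52, in contrast, 2 members were higher in MFN2 cKO and 6 lower in the P pair, and 2 higher and 6 lower in the L/Z pair. In P cells mt-Nd1 changed by -0.55 (-0.59 to -0.52) and mt-Co1 by -0.45 (-0.46 to -0.44), while mt-Rnr2 changed by 0.77 (0.70 to 0.84), from 2938 to 4537 reads. In L/Z cells all 6 mRNAs were lower, from -0.51 (-0.57 to -0.45) for mt-Nd5 to -0.099 (-0.12 to -0.078) for mt-Co1. The value of mt-Co1 was -0.19 with scaling to nuclear protein-coding reads and -0.057 with median-of-ratios scaling over genes above 1 FPKM. In the L/Z pair mt-Rnr2 was higher by 0.29 (0.18 to 0.41) and mt-Rnr1 by 0.12 (-0.0013 to 0.25), which reached 0. In P cells mt-Rnr1 changed by -0.17 (-0.25 to -0.097), so mt-Rnr2 was the ribosomal RNA that ran against most mRNAs in both pairs.

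**Figure D2:**
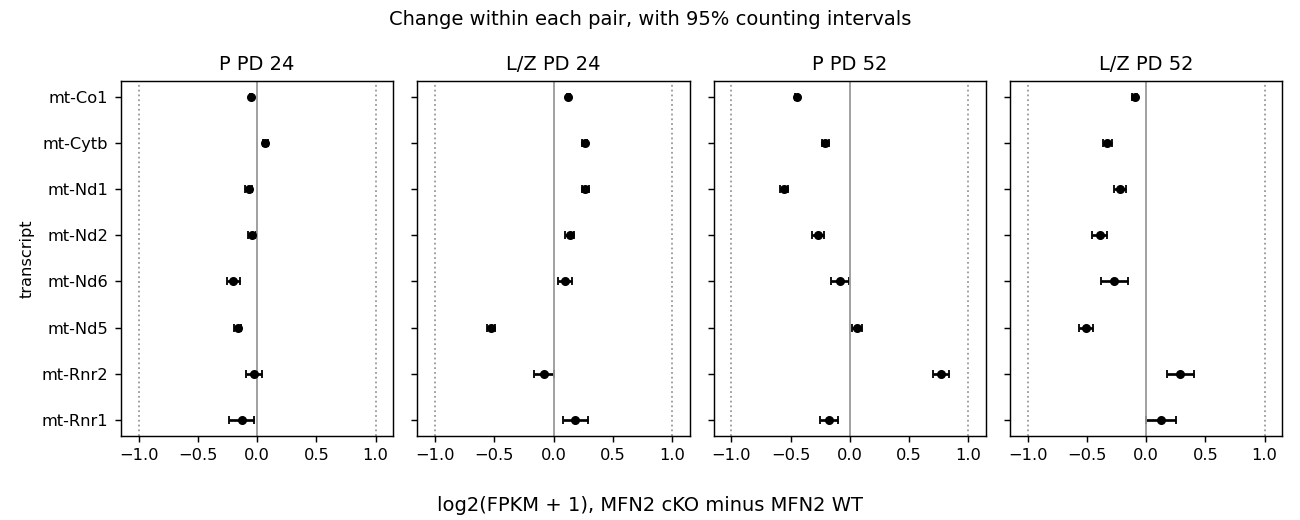
Change of each transcript within each cKO-to-WT pair, as the difference in log2(FPKM + 1), with 95% counting intervals and dotted lines at a 2-fold change. No point reaches a dotted line, the points of P at PD 24 span the narrowest range (-0.20 to 0.068), and mt-Rnr2 in P at PD 52 (0.77) and mt-Nd5 in L/Z at PD 24 (-0.53) are set apart from the rest of their pair.

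Over the 4 pairs together no member passed the test for a genotype effect (limma with the pair as a block, Benjamini-Hochberg adjusted p under 0.05 over 21175 genes), where 0.137% of all genes did. At an unadjusted p under 0.05 the count of members was also 0, beside 1467 of all 21175 genes. With limma-voom on reads 0 members were called as well, beside 38 of 21175 genes. The mean change was -0.12 ± 0.15 (SE, n = 4 pairs) for mt-Co1, -0.28 ± 0.17 for mt-Nd5 and 0.24 ± 0.19 for mt-Rnr2, with limma adjusted p of 0.94, 0.81 and 0.87. The limma test of whether the genotype effect differed between ages also called 0 members (0.0142% of all genes). At an unadjusted p under 0.05 there were 0 members, beside 2641 of 21175 genes. The largest such difference was that of mt-Rnr2, 0.58 ± 0.33 (SE, limma adjusted p = 0.53). Markers of Leydig cells, with sums of 19.7 to 255 in WT and 99.0 to 641 in cKO, and of macrophages, 4.69 to 34.9 and 19.2 to 156, were higher in cKO in 4 of 4 pairs. Spermatid markers were lower in cKO in 3 pairs, with sums of 1301 in WT and 124 in cKO (P, PD 24), 2603 and 462 (L/Z, PD 24), and 4979 and 2327 (P, PD 52). In the L/Z pair at PD 52, where all 6 mRNAs were lower in cKO, they were higher, at 11326 and 20468. Sertoli cell markers were higher in cKO in 2 of 4 pairs. They summed to 432 in WT and 527 in cKO (P, PD 24), 172 and 140 (L/Z, PD 24), 435 and 228 (P, PD 52), and 16.1 and 47.6 (L/Z, PD 52). Leptotene and zygotene markers were higher in cKO in 1 of 4 pairs, L/Z at PD 24. The part of these cell types in the changes was not tested.

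Between stages, all 8 members had a higher mean in the libraries labelled P than in those labelled L/Z, and 4 of them passed the threshold, mt-Co1, mt-Nd2, mt-Nd5 and mt-Rnr2. Of all genes 12.4% were called higher in P. mt-Co1 was higher by 0.75 ± 0.20 (SE, n = 4 pairs, limma adjusted p = 0.030), with a mean FPKM of 3994 against 2475. mt-Rnr2 was higher by 1.00 ± 0.24 (limma adjusted p = 0.022), with means of 134 and 65.9. For mt-Nd5 the difference was 0.68 ± 0.20 (limma adjusted p = 0.041) and for mt-Nd2 0.62 ± 0.18 (limma adjusted p = 0.042). Each of these 4 was higher in P in 4 of 4 pairs.

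The other members did not pass. mt-Cytb was higher in 4 of 4 pairs, with a mean of 0.42 ± 0.17 (SE, limma adjusted p = 0.11). mt-Nd1, mt-Nd6 and mt-Rnr1 were higher in 3 of 4 pairs, with means of 0.53, 0.56 and 0.63 and limma adjusted p between 0.12 and 0.15, and each was lower in P in the MFN2 cKO pair at PD 24. There the differences were -0.089 for mt-Nd1, -0.092 for mt-Nd6 and -0.22 for mt-Rnr1.

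The stage differences had larger values at PD 52. The median over the members was 0.28 in WT and 0.19 in cKO at PD 24, against 1.06 in WT and 1.05 in cKO at PD 52. In the limma test of the difference between ages 0 members passed (0% of all genes, and 0 with limma-voom). At an unadjusted p under 0.05 there were 4 members, beside 1983 of all 21175 genes. The estimates were positive for all 8, from 0.42 for mt-Cytb to 1.38 for mt-Rnr1. Leaving out any single pair ended all 4 stage calls, while the difference stayed between 0.59 and 0.88 for mt-Co1 and between 0.75 and 1.18 for mt-Rnr2. Without WT at PD 24 or cKO at PD 52, 0 of all 21175 genes were called either, but 3209 were without cKO at PD 24 and 5000 without WT at PD 52. With the PD 24 libraries alone 0 members and 0 of all genes were called, and the difference was 0.45 for mt-Co1 and 0.50 for mt-Rnr2. Sertoli cell markers moved with the stage, with sums of 228 to 527 in the P libraries and 16.1 to 172 in the L/Z libraries. Markers of spermatids, peritubular myoid cells (4.81 to 31.6 in P and 43.5 to 154 in L/Z) and macrophages (4.69 to 39.5 and 19.5 to 156) were lower in P in 4 of 4 pairs. The part of any of these in the stage differences was not tested.

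Between ages, 5 of the 6 mRNAs fell, and the exception was mt-Nd1. Of all genes 5.41% were called lower at PD 52. mt-Cytb fell by 1.01 ± 0.15 on the log2 scale (SE, n = 4 pairs, limma adjusted p = 0.015), from a mean FPKM of 1662 to 846. mt-Nd6 fell by 1.14 ± 0.23 (limma adjusted p = 0.026), from 524 to 254. The declines of mt-Nd5, 1.00 ± 0.15, and mt-Nd2, 0.96 ± 0.16, had limma adjusted p of 0.015 and 0.018, and that of mt-Co1, 0.65 ± 0.15, had 0.035. All of these 5 were lower at PD 52 in 4 of 4 pairs.

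mt-Nd1 had a mean difference of -0.62 ± 0.22 (SE, limma adjusted p = 0.099) and was higher at PD 52 in the P WT pair, by 0.074. The ribosomal RNAs did not pass either. mt-Rnr1 had a difference of 0.58 ± 0.30 (limma adjusted p = 0.21) and mt-Rnr2 of -0.068 ± 0.26 (limma adjusted p = 0.86), and both were higher at PD 52 in the P pairs and lower in the L/Z pairs. In P cells mt-Rnr1 differed by 1.29 in WT and 1.24 in cKO, a change past 2-fold in each. So did 1618 of 17162 genes in the WT pair and 2409 of 17681 in the cKO pair, in the same direction.

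The lowest values were those of L/Z cells, where the 6 mRNAs had a median of -0.94 in WT and -1.40 in cKO, against -0.62 and -0.60 in P cells. This gap is the stage by age difference tested above, in which no member passed. Leaving out P cKO, L/Z WT or L/Z cKO from the comparison of ages each left 0 members called, but also 0 of all 21175 genes, while without P WT 6 members and 3937 genes were. Over these fits the difference stayed between -1.12 and -0.84 for mt-Cytb and between -0.81 and -0.51 for mt-Co1. With the P libraries alone 0 members and 0 of all genes passed, and the values of the 6 mRNAs lay between -0.80 and -0.17. Spermatid and pachytene markers were higher at PD 52 in 4 of 4 pairs. Leptotene and zygotene markers were lower in 4 of 4, as were peritubular myoid cell markers (28.5 to 154 at PD 24 and 4.81 to 53.0 at PD 52). Markers of Sertoli cells, macrophages and spermatogonia were higher at PD 52 in 1 of 4 pairs, and those of Leydig cells in 2. The part of any of these in the age differences was not tested.

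**Figure D3:**
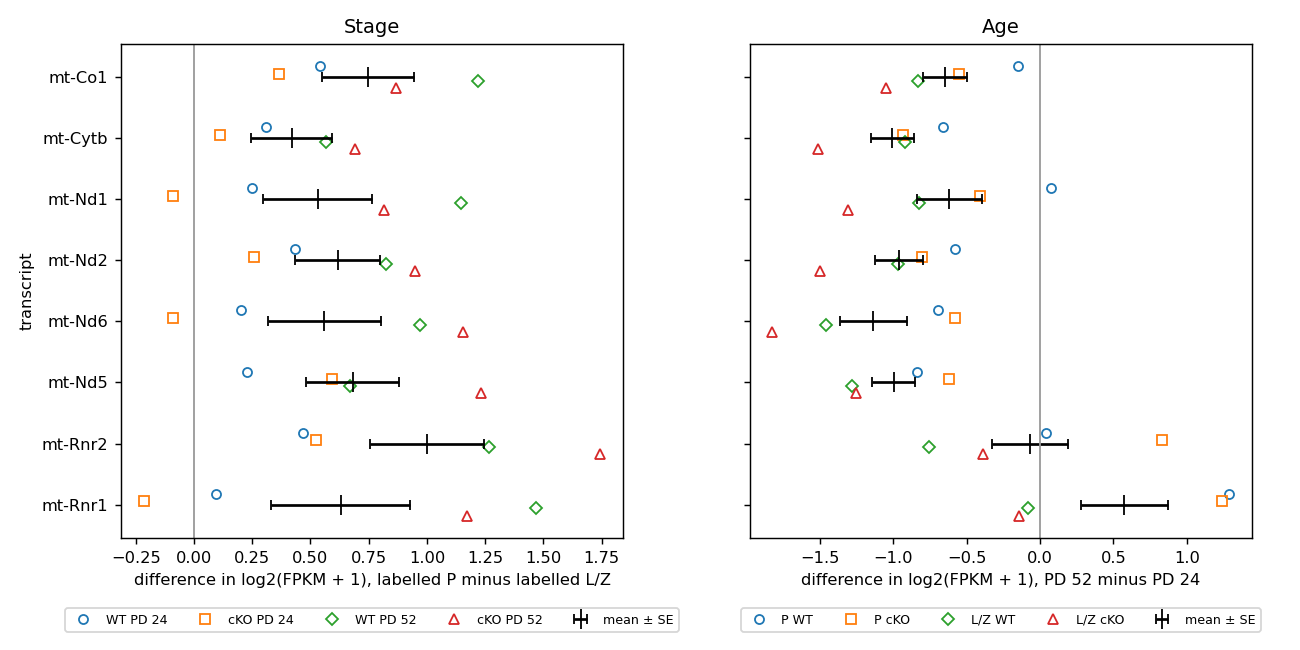
Differences in log2(FPKM + 1) between stages (left, libraries labelled P minus L/Z) and ages (right, PD 52 minus PD 24), with 1 open symbol per matched pair of libraries and the limma mean ± SE in black. In the stage panel both PD 52 pairs (green and red) lie right of both PD 24 pairs for each transcript. In the age panel the 6 mRNAs lie left of 0 in all pairs but P WT of mt-Nd1, and mt-Rnr1 lies at 1.29 and 1.24 in the P pairs.

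Across the 8 libraries the Pearson correlations, on log2(FPKM + 1), of the 15 pairs of mRNAs lay between 0.85 and 0.98 and were highest for mt-Cytb with mt-Nd2. The member most like mt-Nd5 and mt-Nd6 was also mt-Nd2, at 0.95 and 0.98, and mt-Co1 and mt-Nd1 were most like each other, at 0.96. The member least like each mRNA was mt-Rnr1. The 12 correlations of an mRNA with a ribosomal RNA lay between -0.13 and 0.67. That of mt-Rnr1 with mt-Rnr2 was 0.69. These 8 points share libraries, sequencing depth and the differences in cell makeup above, so the values are descriptions.

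The balance of ribosomal RNA to mRNA differed by age. The 2 ribosomal RNAs had 2.06 to 2.25 FPKM per 100 FPKM of the 6 mRNAs in the 4 libraries at PD 24 and 3.24 to 6.45 at PD 52, with no overlap. The highest value was that of P cKO at PD 52, where mt-Rnr2 gave 3.42 and mt-Rnr1 3.04. In each of the 4 age pairs the ribosomal RNAs had the higher change of both sums, by a mean log2 difference of 1.05 ± 0.46 (SD, n = 4 pairs), with 1.65 in P cKO and 0.52 in L/Z WT at the ends. The share of reads on the 354 nuclear genes annotated as rRNA was higher in the same libraries. It was 0.0350% to 0.0408% at PD 24 and 0.359%, 0.305%, 0.0687% and 0.109% in P WT, P cKO, L/Z WT and L/Z cKO at PD 52. Over the 8 libraries the Pearson correlation of that share with the ratio of mitochondrial rRNA to mRNA, both in log2, was 0.92. With the levels themselves it was 0.89 for mt-Rnr1, 0.43 for mt-Rnr2 and between -0.55 and -0.13 for the mRNAs. Genes annotated as miRNA also took more reads at PD 52, 0.516% in P WT, 0.728% in P cKO, 0.0964% in L/Z WT and 0.217% in L/Z cKO. At PD 24 they took 0.0402% to 0.0516%. The part of nuclear rRNA reads, or of how far each library kept ribosomal RNA, in this balance was not tested.

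**Figure D4:**
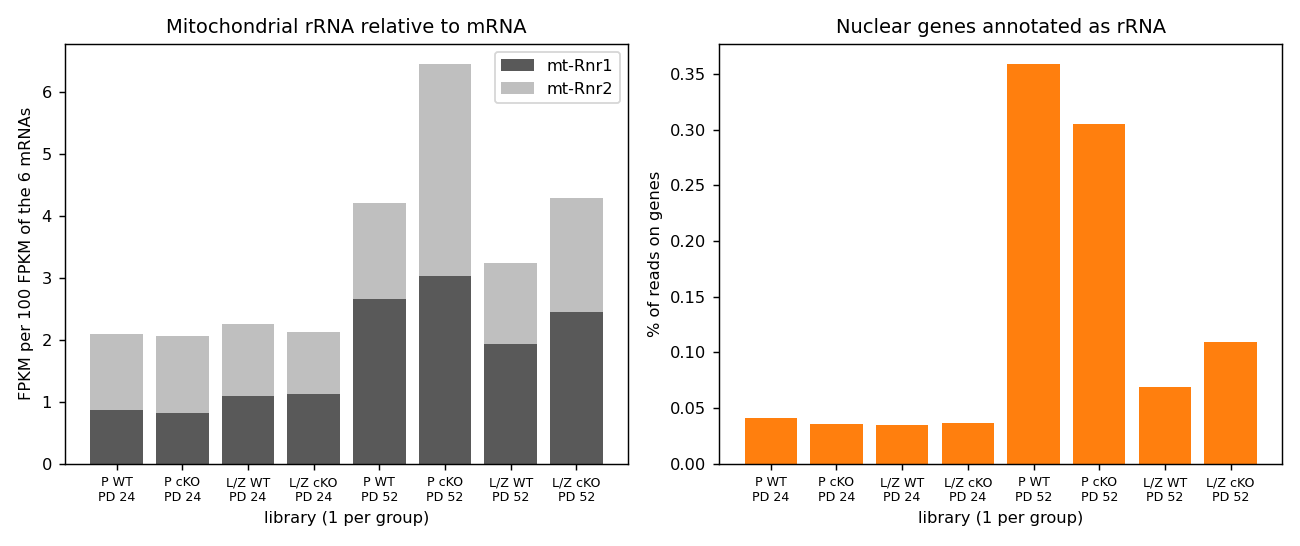
Left, mt-Rnr1 and mt-Rnr2 as FPKM per 100 FPKM of the 6 mitochondrial mRNAs in each library (stacked bars). Right, the percentage of reads on nuclear genes annotated as rRNA. Both are low and even in the 4 libraries at PD 24 (2.06 to 2.25, and at most 0.0408%) and higher at PD 52, and the tallest bar is P cKO on the left and P WT on the right.

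The summed FPKM of the 6 mRNAs was 9226, 8943, 6948 and 7634 in P WT, P cKO, L/Z WT and L/Z cKO at PD 24, and 7472, 5783, 3661 and 3164 at PD 52. Its order over the libraries was close to that of the leptotene and zygotene markers, with a Pearson correlation in log2 of 0.94. That marker sum did not follow the L/Z label and was higher in P in 4 of 4 pairs. The order of the mRNA sum was also close to that of the Sertoli cell markers, at 0.88. It ran against the spermatid markers, at -0.81. Leydig cell markers, at 0.073, and peritubular myoid cell markers, at -0.045, had values near 0. Those of pachytene spermatocytes, spermatogonia and macrophages had -0.48, 0.52 and -0.33. Whether the mRNA levels followed cell makeup was not tested.

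**Figure D5:**
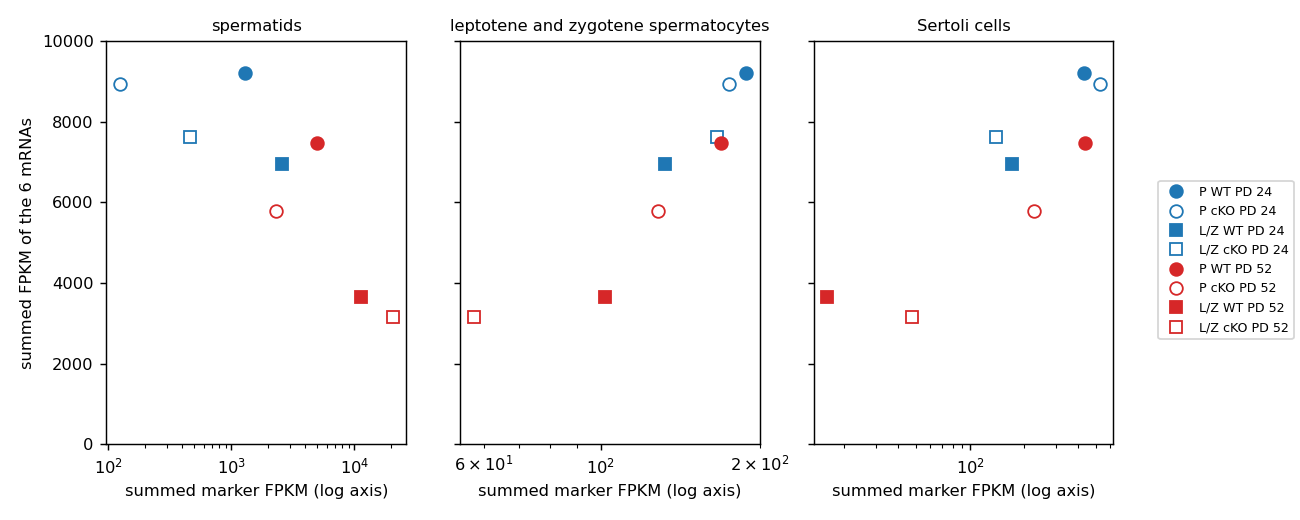
Summed FPKM of the 6 mitochondrial mRNAs against the summed FPKM (log axis) of markers of spermatids, leptotene and zygotene spermatocytes, and Sertoli cells, with 1 point per library (blue PD 24, red PD 52; circles P, squares L/Z; filled WT, open cKO). The 2 L/Z libraries at PD 52, at 3661 and 3164, have the highest spermatid sums (11326 and 20468) and the lowest Sertoli sums (16.1 and 47.6).

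Nuclear genes that act on mitochondrial DNA and RNA were read as a list of 43, of which 42 were tested. For genotype, 0 were called in either direction, with a median of -0.051 against -0.039 over all genes tested. For stage, 4 were higher in P (12.4% of all genes) and 4 lower (16%). Tfam, which packages and helps transcribe mitochondrial DNA, was lower in P by a log2 difference of -1.31 ± 0.35 (SE, limma adjusted p = 0.030), opposite to the 4 called members. Nsun4, which methylates mt-Rnr1 and acts in ribosome assembly, differed by -1.23 ± 0.24 (limma adjusted p = 0.011) and Top1mt, a topoisomerase, by -0.64 ± 0.13 (limma adjusted p = 0.014). Fastkd2, the fourth of them, differed by -0.63. Those higher in P were Fastkd1 (0.90), Mrm2 (0.84), an rRNA methyltransferase, Lonp1 (0.54), a matrix protease, and Elac2 (0.47), which cuts tRNA ends. These last 5 were named after their values were seen.

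For age, 2 genes of that list were higher at PD 52 (11.9% of all genes) and 1 lower. Nsun4 rose by 1.58 ± 0.39 (SE, limma adjusted p = 0.042). Tfb1m, which dimethylates mt-Rnr1, rose by 0.78 ± 0.16 (limma adjusted p = 0.026), and Lonp1 fell by 0.73 ± 0.15 (limma adjusted p = 0.026). The last 2 were also named after their values were seen. Of the genes with the largest genotype differences in the list, Hsd17b10, a part of mitochondrial RNase P, had 0.46 ± 0.26 and Mrm3 had -0.27 ± 0.19, with limma adjusted p of 0.79 and 0.85.

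The nuclear partners of the member-encoded subunits were read in the same way, beside the shares over all genes given above (12.4% higher and 16% lower in P, 11.9% higher and 5.41% lower at PD 52). Of 35 tested complex I subunits 0 were called for genotype, stage or age, and the list medians were -0.13, 0.30 and 0.00087 against -0.039, -0.038 and 0.0048 over all genes. Ndufc2 had the largest stage difference, 0.84 ± 0.29 (SE, limma adjusted p = 0.064). Among 9 complex III subunits, 1 was called, Uqcrc2, a core subunit, higher in P by 0.79 ± 0.16 (limma adjusted p = 0.013). Among 18 complex IV subunits, 1 was higher in P (Cox7a1) and 1 lower (Cox4i2), both with FPKM of at most 7.17 and named after their values were seen. For age 0 were called in complexes III and IV, with medians of 0.23 and 0.13, beside the declines of mt-Cytb and mt-Co1.

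The nuclear protein-coding genes whose pattern over the 8 libraries was most like the summed FPKM of the members were sought among 3214 genes with FPKM above 10 in all libraries. The closest by Pearson correlation of log2(FPKM + 1) was Mtpn, at 0.99, followed by Arf6, Mta2, Srsf1, Hnrnpk, Dnajb11, Srsf6, Nfe2l1, Pfn1 and Tmem165, down to 0.97. They range from Arf6, a small GTPase of membrane traffic, to the splicing factors Srsf1 and Srsf6 and the actin-binding Pfn1. Their FPKM was lower than that of any mRNA member, at most 70.0 for Hnrnpk.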

How the data were processed

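RNA-seq libraries (NEBNext Ultra RNA kit, paired reads of 150 bases) were made from 8 spermatocyte samples. The authors deposited FPKM per gene, made with Novomagic, and median-of-ratios factors computed on it were 1 in every library. The table's coordinates are those of GRCm38 (98.3% of 54409 matched genes identical to GENCODE M21), while the labels' processing notes list mm8, mm9, Bowtie 0.12.2 and CASAVA 1.4. An aligner for this table is not given in the sources used here.

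FPKM times gene length fell on whole reads in 100% of values (tolerance 0.01), which gave the reads behind intervals. The authors' test per pair was not repeated, because each group has 1 library. Genotype, stage and age effects and their interactions with age were fitted with limma 3.58.1 (R 4.3.3, trend) on log2(FPKM + 1), with 4 matched pairs as blocks, over the 21175 genes that passed 1 FPKM in any library. The 8 libraries serve every effect, and p-values measure the spread between these pairs, which combine stage, age and genotype. Calls were made at a Benjamini-Hochberg adjusted p under 0.05. The fit was tested on simulated data.

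The members, gene lists and tests were chosen with earlier results of these data known, and the nuclear rRNA measure was added after the data were examined. Named were all members, Mfn2, the 3 largest genotype and stage differences of each list with FPKM above 1 throughout (examples given), and the 10 nuclear genes most like the members. Alternatives were a pseudocount of 0.1, no filter, other scalings, voom on reads, protein-coding and mitochondrial genes only, no block, each pair left out, and windows of 100 and 50 bases. Added after the data were examined were median-of-ratios scaling over genes above 1 FPKM, P libraries only and PD 24 libraries only. Intervals cover counting error only, because reads were not tied to single molecules.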

Additional observations from a re-analysis of the deposited data

How the results depend on the processing

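No paired analysis by replicate number was possible because each group had 1 library, and the matched pairs of the design served as blocks. The planned median-of-ratios scaling equalled the scaling already in the deposited values. The counts of members called for genotype and for both interactions stayed at 0 under every alternative run, with the lowest limma adjusted p at 0.59 for genotype, 0.33 for genotype by age and 0.22 for stage by age. For stage, 4 members were called, and 2 with a pseudocount of 0.1 or median-of-ratios scaling over genes above 1 FPKM. With scaling to nuclear or to nuclear protein-coding reads 3 were called, as mt-Nd5 had limma adjusted p of 0.053 and 0.052. With limma-voom 5 were called, with mt-Cytb added. The count was 0 with no filter, without the pair block, with PD 24 libraries only or with each pair left out (range 0 to 0). For age, 5 were called, and 0 with no filter, without the block or with P libraries only, and 0 to 6 with each pair left out. For age, 0 of 21175 genes were called with P libraries only and in 3 of the 4 fits with a pair left out, 1 without the block, and 791 of 39634 with no filter, against 3669. For stage, 0 genes were called with PD 24 libraries only and in 2 of the 4 fits with a pair left out, 1145 without the block, and 3010 with no filter, against 6013. The cause was not tested. In P at PD 24 the members higher in cKO numbered 1, but 7 with scaling to nuclear protein-coding reads and 4 with median-of-ratios scaling over genes above 1 FPKM.

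Stage and age differences of the 6 mRNAs kept their direction under all alternatives run. Reversed values, none of them called, were as follows. For genotype with PD 24 libraries only they were 0.037 for mt-Co1, 0.17 for mt-Cytb, 0.098 for mt-Nd1, 0.046 for mt-Nd2 and -0.054 for mt-Rnr2, and with P libraries only -0.15 for mt-Rnr1. With each pair left out, genotype ranged from -0.16 to 0.041 for mt-Cytb and from -0.060 to 0.059 for mt-Rnr1. For stage, mt-Rnr1 was -0.060 with PD 24 libraries only. For age, mt-Rnr2 was 0.44 with P libraries only and -0.37 to 0.16 with each pair left out. For genotype by age, mt-Nd5 was -0.011 and -0.0032 with scaling to nuclear and to nuclear protein-coding reads, and -0.16 to 0.40 with each pair left out. There mt-Rnr1 was 0.022 with median-of-ratios scaling over genes above 1 FPKM, and -0.21 to 0.10 with each pair left out, and mt-Nd6 was -0.27 to 0.023.

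Scaling to nuclear reads moved the median age difference of all genes from 0.0048 to -0.15. Relative to it the 6 mRNAs lay between -1.20 and -0.68, against -1.14 and -0.62 before. With windows of 50 bases, 51.1% of mt-Co1, 8.19% of mt-Nd2, 7.61% of mt-Nd5 and 1.04% of mt-Rnr2 were shared. Reads per member and library ran from 1014 to 141302. Within the cKO-to-WT pairs, counting intervals reached 0 for mt-Rnr2 in P and L/Z at PD 24 and for mt-Rnr1 in L/Z at PD 52.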

Other observations

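The 29 other mitochondrial genes comprised 22 tRNA genes and 7 protein-coding genes, and 8 of the tRNA genes were listed at 0 in all libraries. Of the 20 that could be tested, 0 were called for genotype and 3 were lower at PD 52, mt-Nd4 with a log2 difference of -0.97 ± 0.17 (SE, limma adjusted p = 0.019), mt-Co2 with -1.11 ± 0.29 (limma adjusted p = 0.047) and mt-Atp6 with -1.11 ± 0.26 (limma adjusted p = 0.037). Of all genes 5.41% were called in that direction, and these 3 share 59.2%, 99.4% and 99.4% of their windows of 150 bases with nuclear transcripts. For stage, mt-Tp and mt-Tl1 were higher in P and mt-Tl2 and mt-Tg lower, the last pair with FPKM of at most 7.94. All 7 were named after their values were seen.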
